A study of Mus musculus with 90 samples.

Results

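Lowering the catalytic subunits of protein kinase A (PKA) in mouse liver was compared with control liver by RNA sequencing. The comparison takes the 10 libraries titled PKA KD and the 10 titled Control in the first of 2 experiments, which makes 20 of the 90 libraries of the series. Groups were read from the sample titles, because replicate 10 of each group carries a 0 at the end of its treatment label. In this experiment short hairpin RNAs carried by AAV8, a viral vector that mainly reaches hepatocytes, lowered Gcgr (the glucagon receptor), Gnas (the stimulatory G protein alpha subunit), PKA or Epac2 (another cAMP sensor), with 10 libraries for each and 10 for Control.

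The label PKA KD names no subunit. Strain, age, sex, vector dose, hairpin sequence and what the Control animals received are not stated in the sample labels or the series text used here. RNA came from liver tissue, so a library also holds RNA of cells that AAV8 reaches poorly, and in such bulk samples fewer cells of a type and less RNA per cell cannot be told apart. Nothing in the labels says whether the 10 samples of a group are 10 animals, so each p-value describes the spread among libraries, which may be technical. For comparison, Gnas KD and Gcgr KD of the same experiment were used, and from the second experiment 10 libraries of Prkar1a KD with a control antibody (Prkar1a KD) against 10 of a control AAV with the same antibody (Control AAV).

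PKA is a tetramer of regulatory and catalytic subunits, and cAMP bound to the regulatory subunits frees the catalytic ones to phosphorylate their substrates. In the fasting liver, glucagon raises cAMP through its receptor, and PKA then drives the transcription factor CREB and its CRTC coactivators at genes of glucose production and amino acid breakdown. Lowering a catalytic subunit takes the kinase away, while lowering the regulatory subunit encoded by Prkar1a removes a brake on it.

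The authors deposited expected counts per gene. Levels are given in CPM, the counts of a gene per 1000000 counts of its library after TMM scaling. Changes are log2 fold changes with their SE (10 libraries in each group). A gene is said to rise or fall where edgeR's quasi-likelihood test gave an adjusted p under 0.05, with Benjamini-Hochberg adjustment over all tested genes. Both this p and the SE use a spread estimated over all 50 libraries of the first experiment, or all 40 of the second. Libraries held 22 M to 33.7 M counts (median 25.5 M). Of 13574 tested genes, 2396 (17.7%) rose and 2005 (14.8%) fell. The libraries of both groups did not overlap for 318 genes that were higher (2.34%) and 407 that were lower (3%). Scaled by total counts instead, the median change of all genes moved from 0.013 to 0.11 and the share of rises among the calls from 54.4% to 75.3%, with 3562 rises and 1171 falls. Most changes were modest, with a median size of 0.43 among rises and 0.371 among falls, and 363 rises (15.2%) and 142 falls (7.08%) reached 2-fold.

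On the first principal component of the 1000 most variable genes (32.9% of the variance), Control libraries scored -30.8 to -4.1 and 8 of the PKA KD libraries 16.4 to 33.8. PKA KD replicates 5 and 7 stood apart from these 8, at -3.7 and 3.44, and were also lowest on the second component (18.7%), at -38 and -25.1. Left out together, a choice made after seeing the data, they gave 2372 rises and 2120 falls, of which 2168 and 1864 were shared with the full set. PKA KD replicate 3 lay past Dixon's 95% critical value in its group for 13 of the genes named here, and without it 2439 genes rose and 2123 fell. Hepatocyte markers were abundant in every library, at summed levels of 97600 to 133000 CPM in Control and 90000 to 119000 CPM with PKA KD. Of the markers of other cells, 0 of 12 stellate and fibroblast, 0 of 12 Kupffer and macrophage and 0 of 2 tested neutrophil genes passed the test. Endothelial markers gave 0 rises and 1 fall of 11, T and NK markers 1 and 1 of 9, B and plasma markers 0 and 1 of 7, and erythroid markers 1 and 0 of 6. Bile duct markers gave 5 rises and 0 falls of 10, at summed levels of 91.4 to 206 CPM against 125 to 397 CPM. Without PKA KD replicates 5 and 7 the bile duct list gave 2 rises and 0 falls.

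Both catalytic subunit genes were strongly reduced in every PKA KD library. Prkaca (Entrez gene 18747, chromosome 8, 83972978 to 83996444, build GRCm38.p6), the main catalytic subunit gene, ranged from 85.6 to 107 CPM (median 95.7) in Control and from 7.34 to 23.4 CPM (median 9.44) with PKA KD, a change of -3.06 ± 0.13 (adjusted p = 1.4e-24). Prkacb (Entrez gene 18749, chromosome 3, 146729579 to 146812946), the second catalytic gene, stood at 34.7 to 44.6 CPM (median 40.4) in Control and at 6.73 to 13.8 CPM (median 8.94) with PKA KD, a change of -2.06 ± 0.086 (adjusted p = 6.11e-25). In neither gene did the groups overlap, and PKA KD replicate 5 held the highest remaining Prkaca level. Prkx, a related kinase gene expressed at a low level, ranged from 2.86 to 5.98 CPM (median 4.77) in Control and from 2.22 to 4.68 CPM (median 3.31) with PKA KD, at -0.51 ± 0.16 (adjusted p = 0.0107), and its call was lost with scaling by total counts (-0.42, adjusted p = 0.0749). The other 3 knockdowns of the experiment did not pass the test for Prkaca, at 0.02, 0.01 and -0.03 for Gcgr, Gnas and Epac2 KD.

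Among the regulatory subunits, Prkar1a, the subunit gene that the second experiment targeted, lay between 123 and 134 CPM (median 128) in the Control libraries and between 98.4 and 119 CPM (median 103) in the PKA KD libraries. Its change of -0.28 ± 0.037 (adjusted p = 2.72e-08) was small but separated the groups fully, and with scaling by total counts it was -0.19. The type II regulatory genes Prkar2a (0.11 ± 0.062, adjusted p = 0.17) and Prkar2b (-0.36 ± 0.31, adjusted p = 0.411) did not pass the test. Neither did Prkar1b (0.54 ± 0.27, adjusted p = 0.123) nor the genes of the heat-stable inhibitors of PKA, Pkia (-0.24 ± 0.28, adjusted p = 0.561), Pkib (0.01 ± 0.26, adjusted p = 0.986) and Pkig (-0.01 ± 0.11, adjusted p = 0.979). Prkar2a passed with scaling by total counts (0.21, adjusted p = 0.00806), and Prkar1b passed without Control replicate 5 (0.71, adjusted p = 0.0427).

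**Figure D1:**
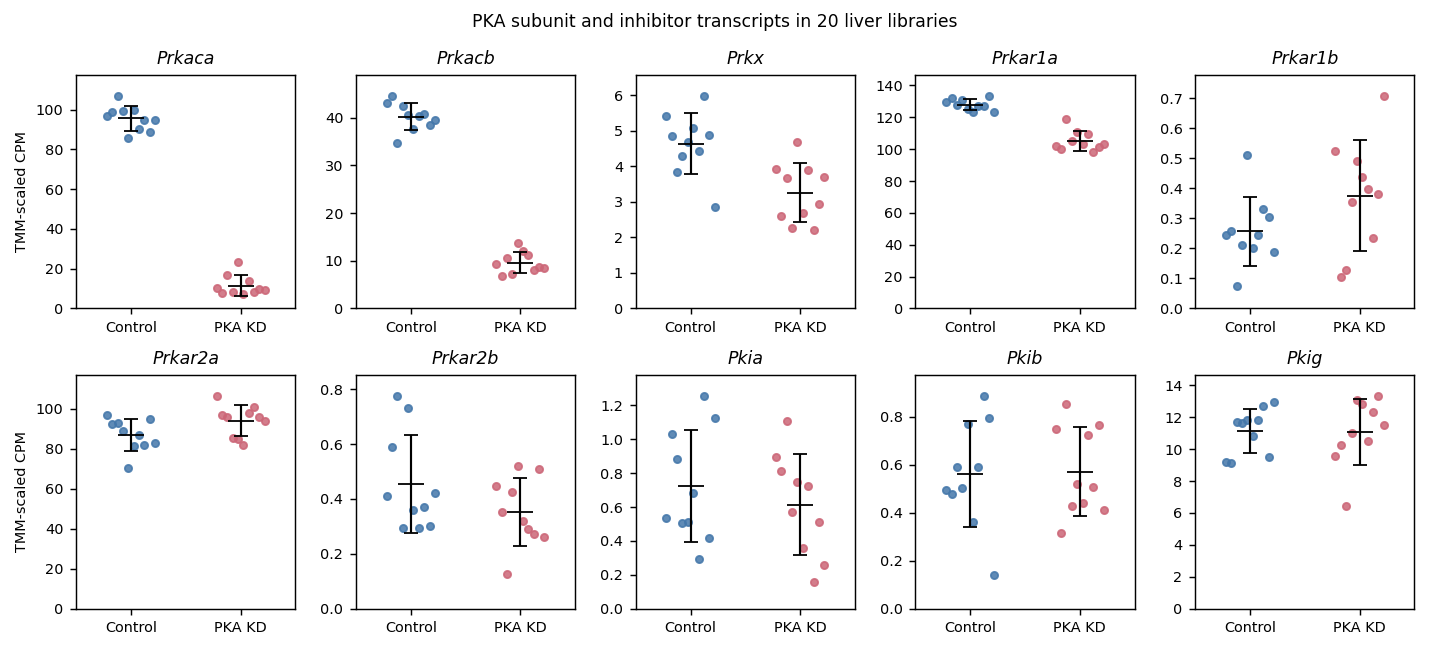
CPM of the 10 PKA subunit and inhibitor genes in each of the 10 Control and 10 PKA KD libraries; points are libraries, and the bar and whiskers are the mean and SD of a group. Each axis starts at 0. Prkaca and Prkacb fall from medians of 95.7 and 40.4 CPM to 9.44 and 8.94 CPM with no overlap, Prkar1a falls slightly, and the other regulatory and inhibitor genes overlap between groups.

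Genes for proteins that place PKA in the cell, or that make and destroy its activator, were counted against 17.7% rises and 14.8% falls over all genes. Of 13 tested A-kinase anchoring genes, 1 rose and 4 fell (median 0.02), and with scaling by total counts 2 rose and 3 fell. The clearest was Akap1 (Entrez gene 11640, chromosome 11, 88830792 to 88864596), which holds PKA at the outer mitochondrial membrane: it ranged from 166 to 186 CPM (median 176) in Control and from 81.9 to 122 CPM (median 101) with PKA KD, a change of -0.83 ± 0.059 (adjusted p = 2.49e-16). Its groups did not overlap, and it was also lower than in Gnas KD (-0.61 ± 0.058, adjusted p = 5.23e-12). Acbd3, a Golgi protein that binds PKA regulatory subunits, changed by -0.51 ± 0.094 (adjusted p = 1.84e-05), and Akap11, an anchor that also binds glycogen synthase kinase, by -0.32 ± 0.069 (adjusted p = 0.000244). Akap9, an anchor at the Golgi and centrosome, rose by 0.25 ± 0.074 (adjusted p = 0.00771). The 8 genes that did not pass lay at -0.32 to 0.27.

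Of the 13 tested cAMP phosphodiesterases, which hydrolyse cAMP, 2 rose and 2 fell (median -0.07), shares near those of all genes, and without PKA KD replicates 5 and 7 the list gave 1 rise and 2 falls. Pde4b, whose transcription cAMP itself is known to raise, ranged from 12.9 to 32.3 CPM (median 19) in Control and from 8.73 to 14.6 CPM (median 11.4) with PKA KD, at -0.83 ± 0.17 (adjusted p = 9.15e-05). Pde8a stood at 25.5 to 40 CPM (median 32.5) in Control and at 19.4 to 30.5 CPM (median 24.1) with PKA KD, at -0.38 ± 0.089 (adjusted p = 0.000547). The groups overlapped at their edges for both genes, and both moved the other way with Prkar1a KD, at 1.0 (Pde4b) and 0.49 (Pde8a). Among 22 receptor, G protein and adenylyl cyclase genes, 2 rose and 2 fell (median 0.00). The rises were Adcy9, a membrane adenylyl cyclase, at 0.37 ± 0.11 (adjusted p = 0.00782), and Gna11, a G protein alpha subunit that acts on phospholipase C, at 0.26 ± 0.076 (adjusted p = 0.0055). Both falls in that group lost their call with scaling by total counts, where 3 genes rose and 0 fell. The Epac and Rap1 genes gave 1 rise and 1 fall of 8.

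PKA acts on gene expression through CREB and its partners. Of 15 tested CREB, CRTC and salt-inducible kinase genes, 2 rose and 3 fell (median -0.07), shares near those of all genes, against 4 rises and 1 fall with scaling by total counts. Crem, which encodes cAMP-induced CREB family repressors, ranged from 6.6 to 13.9 CPM (median 8.33) in Control and from 4.31 to 8.37 CPM (median 6.07) with PKA KD, at -0.46 ± 0.13 (adjusted p = 0.00349), while Prkar1a KD raised it by 1.33. Crtc3, a CREB coactivator, rose by 0.39 ± 0.11 (adjusted p = 0.00554) and Ep300, an acetyltransferase recruited by CREB, by 0.24 ± 0.07 (adjusted p = 0.00552). Of 21 genes known to respond to cAMP within hours, 2 rose (9.52%) and 5 fell (23.8%), with a median log2 fold change of -0.23. Nr4a2, an orphan nuclear receptor gene of this class, stood at 0.845 to 1.8 CPM (median 1.25) in Control and at 0.195 to 1.23 CPM (median 0.415) with PKA KD, at -1.16 ± 0.30 (adjusted p = 0.00169). Lpin1, a phosphatidate phosphatase and coactivator, ranged from 67.8 to 131 CPM (median 98.6) in Control and from 19.4 to 59.6 CPM (median 40.2) with PKA KD, at -1.31 ± 0.23 (adjusted p = 1.54e-05), with no overlap. Ppargc1a, the coactivator of gluconeogenic and mitochondrial genes, went up instead, by 0.51 ± 0.14 (adjusted p = 0.00344), and rose with Prkar1a KD too (1.76).

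CREB binds the cAMP response element TGACGTCA, a palindrome that reads the same on both strands, and its shorter form TGACG. Promoter windows from 250 bases before to 50 after the RefSeq start (GRCm38.p6) were searched for both. The full element was in 4.33% of 1618 windows of genes that fell, 2.41% of 1910 windows of genes that rose and 3.03% of 7253 windows of genes not called, against 3.12% of all tested genes and 1.88% of the 27025 promoters of the table. The shorter form on either strand, which every full element also holds, was in 35%, 28.1%, 30.8%, 31% and 21% of the same windows. Among genes lower by at least 2-fold (115 windows) 5.22% held the full element and 27.8% the shorter form, and among genes higher by at least 2-fold (261 windows) 1.92% and 19.9%. The shorter form was thus in 32 of the 115 windows of 2-fold falls, a share slightly below that of all tested genes, while the share of all falls lay above it. The full element was in 6 windows of 2-fold falls and 5 of 2-fold rises. No test of these shares was made. Each segment printed here lies around a match. They are shown for the largest rise (Meg3), the largest falls with a full element by fold change among lipid genes (Pnpla3, Elovl5), a gluconeogenesis gene with a full element (Ldha), and the cAMP targets Nr4a2 and Pck1, which hold only the shorter form. Capitals mark each match (CGTCA is the shorter form on the other strand), read 5′ to 3′ on the gene's strand, and Elovl5 was picked after its values were seen.
Meg3, chr12:109540893-109540992 (+): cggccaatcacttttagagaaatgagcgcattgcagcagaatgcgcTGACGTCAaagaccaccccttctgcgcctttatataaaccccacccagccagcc
Pnpla3, chr15:84167724-84167823 (+): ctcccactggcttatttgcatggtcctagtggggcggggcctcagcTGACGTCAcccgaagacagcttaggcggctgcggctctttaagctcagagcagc
Elovl5, chr9:77917322-77917394 (+): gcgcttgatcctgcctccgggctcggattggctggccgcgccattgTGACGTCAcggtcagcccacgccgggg
Ldha, chr7:46845746-46845833 (+): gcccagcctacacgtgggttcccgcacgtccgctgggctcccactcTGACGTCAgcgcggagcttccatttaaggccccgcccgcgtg
Nr4a2, chr2:57124061-57124160 (-): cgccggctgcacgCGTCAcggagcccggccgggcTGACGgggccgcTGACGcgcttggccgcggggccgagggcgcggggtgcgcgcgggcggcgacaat
Pck1, chr2:173152937-173153036 (+): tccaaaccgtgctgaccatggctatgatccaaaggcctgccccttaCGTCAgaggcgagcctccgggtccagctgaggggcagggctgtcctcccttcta

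The element starts 57 bases before the start in Meg3, 46 before in Pnpla3, 12 before in Ldha and at base 4 of the transcript in Elovl5. Nr4a2 holds 4 copies of the shorter form in its window, and Pck1 holds 1, which starts 90 bases before the start. These genes went in both directions: Meg3 rose by 5.26, while Pnpla3 changed by -1.90 ± 0.55 (adjusted p = 0.00546), Elovl5, an elongase of polyunsaturated fatty acids, by -1.11 ± 0.32 (adjusted p = 0.0054), and Ldha, lactate dehydrogenase, by -0.69 ± 0.085 (adjusted p = 4.18e-09). Pnpla3, a lipid droplet hydrolase, was at -2.93 without PKA KD replicates 5 and 7. Of the 16 cAMP response genes with a window, 2 held the full element and 11 the shorter form, of 18 gluconeogenesis genes 2 and 6, and of 20 lipogenesis genes 1 and 4. A match is a description of the sequence and does not show binding.

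More glucose production genes fell than rose. In the gluconeogenesis list, 3 of 21 tested genes rose and 8 fell, with a median log2 fold change of -0.16. Pck1, which commits carbon to glucose by forming phosphoenolpyruvate, ranged from 714 to 1873 CPM (median 1226) in Control and from 340 to 969 CPM (median 564) with PKA KD, at -1.03 ± 0.19 (adjusted p = 3.04e-05). G6pc, the phosphatase that frees glucose, stood at 119 to 418 CPM (median 228) in Control and at 56.5 to 172 CPM (median 86.4) with PKA KD, at -1.18 ± 0.24 (adjusted p = 0.000112). In both, the lowest Control libraries reached into the PKA KD range. Fbp1, the fructose bisphosphatase between these steps, ranged from 857 to 1129 CPM (median 982) in Control and from 331 to 903 CPM (median 533) with PKA KD, at -0.87 ± 0.12 (adjusted p = 1.04e-07), with a narrow overlap. Ldha, which interconverts lactate and pyruvate, lay between 852 and 1067 CPM (median 963) in the Control libraries and between 427 and 762 CPM (median 595) in the PKA KD libraries, with no overlap. A pair of shuttle enzymes that carry reducing equivalents and aspartate rose, Mdh1 by 0.29 ± 0.06 (adjusted p = 0.000116) and Got2 by 0.24 ± 0.048 (adjusted p = 6.9e-05). Of the 10 genes that did not pass, changes spanned -0.32 to 0.25.

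Among genes of nitrogen disposal, falls alone passed the test. In the urea cycle and ammonia list, 0 of 13 tested genes rose and 6 fell, with a median log2 fold change of -0.30. Arg1, the arginase that releases urea, ranged from 746 to 1073 CPM (median 965) in Control and from 449 to 651 CPM (median 527) with PKA KD, at -0.79 ± 0.087 (adjusted p = 3.42e-10), with no overlap. Ass1, which joins citrulline and aspartate, stood at 2400 to 4412 CPM (median 3470) in Control and at 859 to 3310 CPM (median 1476) with PKA KD, at -0.99 ± 0.19 (adjusted p = 3.87e-05). Slc25a15, the mitochondrial ornithine carrier, lay between 164 and 261 CPM (median 214) in the Control libraries and between 88.3 and 188 CPM (median 109) in the PKA KD libraries, at -0.77 ± 0.12 (adjusted p = 1.26e-06). Gls2, the liver glutaminase that supplies ammonia, ranged from 166 to 307 CPM (median 265) in Control and from 48.9 to 233 CPM (median 88.7) with PKA KD, at -1.16 ± 0.21 (adjusted p = 2.13e-05). For the last 3 genes the highest PKA KD library lay inside the Control range.

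The list of histidine, proline and arginine catabolism had the largest share of falls among the amino acid lists, 9 of 12 tested genes against 1 rise, with a median log2 fold change of -0.50. Oat, the ornithine aminotransferase, ranged from 602 to 1227 CPM (median 851) in Control and from 209 to 561 CPM (median 360) with PKA KD, at -1.27 ± 0.19 (adjusted p = 7.59e-07). Amdhd1, an enzyme of histidine breakdown, stood at 133 to 188 CPM (median 168) in Control and at 65.1 to 125 CPM (median 81.8) with PKA KD, at -0.94 ± 0.10 (adjusted p = 1.34e-10). Neither gene had overlapping groups. Hal, histidine ammonia-lyase, the entry to the same pathway, lay between 161 and 298 CPM (median 244) in the Control libraries and between 101 and 212 CPM (median 136) in the PKA KD libraries, at -0.76 ± 0.19 (adjusted p = 0.00167). Pycr1, which makes proline, was the rise, at 1.45 ± 0.35 (adjusted p = 0.000762) from a low level (0.418 CPM against 0.166 CPM at the medians).

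Aromatic amino acid genes gave fewer calls. In tyrosine and phenylalanine breakdown, 0 of 9 tested genes rose and 4 fell, with a median log2 fold change of -0.18. Tat, the tyrosine aminotransferase, ranged from 490 to 1432 CPM (median 707) in Control and from 184 to 630 CPM (median 333) with PKA KD, at -1.14 ± 0.21 (adjusted p = 2.28e-05), Hgd, homogentisate dioxygenase, changed by -0.50 ± 0.095 (adjusted p = 2.71e-05), and Qdpr, which recycles the hydroxylase cofactor, by -0.52 ± 0.092 (adjusted p = 9.87e-06). In the tryptophan and kynurenine pathway, 1 of 13 rose and 3 fell (median -0.14). Kynu, kynureninase, fell by 0.43 ± 0.10, Haao, which makes quinolinate precursors for NAD, by 0.42 ± 0.091, and Nadsyn1, the last step of NAD synthesis, by 0.30 ± 0.058. In these genes the groups overlapped.

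Serine and sulfur amino acid genes went both ways. In serine, glycine and threonine metabolism, 1 of 18 rose and 8 fell (median -0.18), and with scaling by total counts 2 rose and 6 fell. Glyctk, glycerate kinase, ranged from 210 to 279 CPM (median 241) in Control and from 114 to 178 CPM (median 157) with PKA KD, at -0.65 ± 0.073 (adjusted p = 4.43e-10), with no overlap. Sdsl, a serine dehydratase, changed by -0.96 ± 0.19 (adjusted p = 6.83e-05), Psat1, of serine synthesis, by -0.96 ± 0.27 (adjusted p = 0.00398), and Dmgdh, which demethylates dimethylglycine, rose by 0.37 ± 0.11 (adjusted p = 0.0061). In methionine, homocysteine and cysteine metabolism, 4 of 17 rose and 4 fell (median -0.13), against 17.7% and 14.8% of all genes. Here both routes of homocysteine were called and went opposite ways: Bhmt, which methylates homocysteine back to methionine with betaine, ranged from 3081 to 6066 CPM (median 4290) in Control and from 4168 to 10030 CPM (median 6891) with PKA KD, at 0.67 ± 0.15 (adjusted p = 0.000299). Cbs, which sends it to cysteine, stood at 392 to 659 CPM (median 568) in Control and at 254 to 402 CPM (median 296) with PKA KD, at -0.88 ± 0.12 (adjusted p = 2.59e-08). The other remethylation genes Mtr (methionine synthase, 0.33 ± 0.09) and Mtrr (its reductase, 0.30 ± 0.075) rose, and Gnmt (-0.53 ± 0.13, disposal of methyl groups), Cdo1 (-0.44 ± 0.10, cysteine dioxygenase) and Suox (-0.33 ± 0.083, sulfite oxidase) fell.

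Branched-chain amino acid and lysine oxidation held 2 rises and 8 falls of 22 (median -0.11), with 4 rises and 4 falls with scaling by total counts and 4 rises and 7 falls without PKA KD replicate 3. The falls with no overlap between groups included Pccb, a propionyl-CoA carboxylase subunit (-0.54 ± 0.054, adjusted p = 1.43e-11), Mccc2, of leucine oxidation (-0.48 ± 0.052, adjusted p = 1.73e-10), and Gcdh, of lysine oxidation (-0.45 ± 0.069, adjusted p = 7.55e-07). Acadsb, an acyl-CoA dehydrogenase of isoleucine, rose by 0.45 ± 0.12 (adjusted p = 0.00323). Among 25 amino acid transporters, 2 rose and 7 fell (median -0.10), and with scaling by total counts 4 rose and 6 fell. Slc38a3, which moves glutamine across the hepatocyte membrane, ranged from 1090 to 1861 CPM (median 1426) in Control and from 594 to 914 CPM (median 816) with PKA KD, at -0.87 ± 0.11 (adjusted p = 1.1e-08). Slc3a1, a subunit of the cystine carrier, stood at 39.3 to 69.7 CPM (median 53.3) in Control and at 19.2 to 33.4 CPM (median 24.5) with PKA KD, at -1.14 ± 0.23 (adjusted p = 9.47e-05). Neither overlapped between groups. Slc25a22, a mitochondrial glutamate carrier, changed by -0.97 ± 0.11 (adjusted p = 8.1e-10). Slc7a5, the carrier of large neutral amino acids, rose by 0.90 ± 0.16 (adjusted p = 1.49e-05) and Slc16a10, of aromatic amino acids, by 0.41 ± 0.13 (adjusted p = 0.0105).

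**Figure D2:**
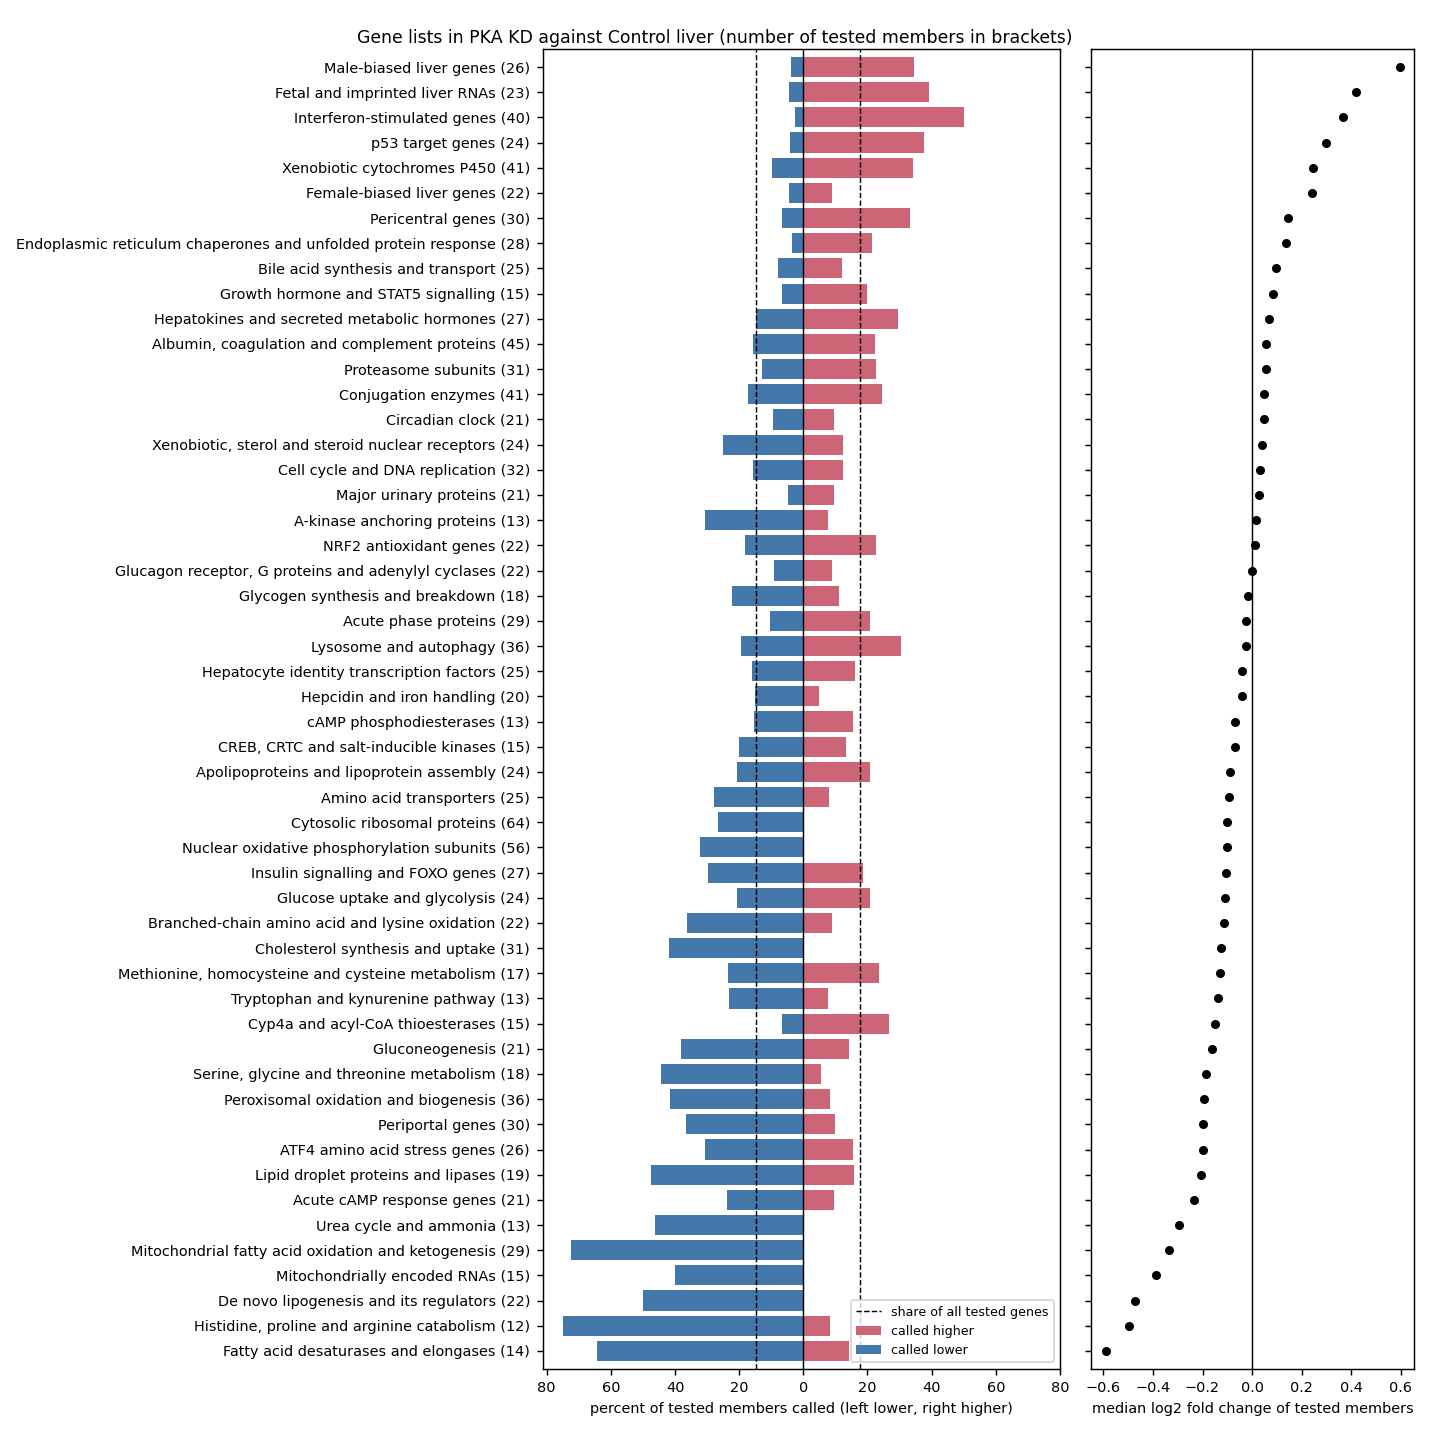
For each list shown, the left panel gives the percentage of tested members called lower (blue, left) and higher (red, right) with PKA KD. The dashed lines give the share over all 13574 tested genes (14.8% lower, 17.7% higher). The lists of PKA subunits, of Epac and Rap1 genes, of tyrosine and phenylalanine breakdown and of cell type markers are not shown. The right panel gives the list's median log2 fold change. Fatty acid oxidation has 21 of 29 members lower and 0 higher, and interferon-stimulated genes 20 of 40 higher and 1 lower.

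Fat synthesis, storage and oxidation genes all had more falls than the 14.8% of all tested genes. In the mitochondrial fatty acid oxidation and ketogenesis list, 0 of 29 tested genes rose and 21 fell, with a median log2 fold change of -0.34, against 16 falls with scaling by total counts. Ppara, the main transcription factor of fatty acid oxidation in liver, ranged from 319 to 571 CPM (median 453) in Control and from 129 to 263 CPM (median 174) with PKA KD, at -1.16 ± 0.12 (adjusted p = 5.12e-11), with no overlap. Fabp1, the abundant liver fatty acid binding protein, stood at 4604 to 5992 CPM (median 5211) in Control and at 2550 to 4965 CPM (median 2815) with PKA KD, at -0.76 ± 0.12 (adjusted p = 2.46e-06). Cd36, a fatty acid carrier of the cell surface, lay between 49.9 and 126 CPM (median 93.2) in the Control libraries and between 26.5 and 67.2 CPM (median 47.2) in the PKA KD libraries, at -0.97 ± 0.28 (adjusted p = 0.00564). For Fabp1 and Cd36 the ranges met, and the PKA KD medians lay below every Control library. Fgf21, a hormone gene under PPARA, ranged from 5.13 to 17.6 CPM (median 9.65) in Control and from 1.05 to 9.38 CPM (median 1.51) with PKA KD, at -1.98 ± 0.39 (adjusted p = 7.11e-05), with PKA KD replicate 5 the highest of its group. The 8 genes that did not pass lay at -0.24 to 0.09.

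The peroxisomal list gave 3 rises and 15 falls among 36 tested genes (median -0.19), and 7 rises and 11 falls with scaling by total counts or 5 rises and 14 falls without PKA KD replicate 3. Phyh (Entrez gene 16922, chromosome 2, 4918996 to 4938743), which hydroxylates phytanoyl-CoA so that branched fatty acids can be degraded, ranged from 1238 to 1738 CPM (median 1506) in Control and from 191 to 447 CPM (median 248) with PKA KD, at -2.47 ± 0.12 (adjusted p = 4.65e-23). Acaa1b, a peroxisomal thiolase, stood at 1005 to 1823 CPM (median 1528) in Control and at 300 to 753 CPM (median 408) with PKA KD, at -1.72 ± 0.23 (adjusted p = 3.92e-08). Pex16, a membrane assembly factor of peroxisomes, lay between 57 and 84.3 CPM (median 67.8) in the Control libraries and between 20.8 and 39.7 CPM (median 36.4) in the PKA KD libraries, at -1.02 ± 0.11 (adjusted p = 1.01e-10). No library of either group overlapped the other for these 3 genes. Crat, carnitine acetyltransferase, changed by -0.98 ± 0.22 (adjusted p = 0.000484), and the abundant sterol carrier Scp2 by -0.55 ± 0.058 (adjusted p = 1.07e-10). Of 15 tested Cyp4a and thioesterase genes, several of them known PPARA targets, 4 rose and 1 fell (median -0.15). The 10 that did not pass lay at -1.19 to 0.29. Cyp4a31 stood at 2.44 to 10.8 CPM (median 4.62) in Control and at 20.9 to 57.4 CPM (median 26.8) with PKA KD, at 2.55 ± 0.26 (adjusted p = 3.57e-11), and Cyp4a12a (1.84 ± 0.25) and Cyp4a12b (2.12 ± 0.57) rose too. These paralogs are nearly identical, so counting could split their reads and single values are uncertain.

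In de novo lipogenesis, 0 of 22 tested genes rose and 11 fell, with a median log2 fold change of -0.47. Fasn, fatty acid synthase, ranged from 928 to 2000 CPM (median 1503) in Control and from 229 to 1723 CPM (median 410) with PKA KD, at -1.25 ± 0.34 (adjusted p = 0.00333). Me1, the malic enzyme that supplies NADPH, stood at 264 to 435 CPM (median 345) in Control and at 24.4 to 292 CPM (median 91.8) with PKA KD, at -1.52 ± 0.37 (adjusted p = 0.00113). The spread among PKA KD libraries was wide for both, and their highest values lay inside the Control range. Without PKA KD replicates 5 and 7 the list gave 0 rises and 14 falls, and with scaling by total counts 2 rises and 9 falls. Desaturases and elongases gave 2 rises and 9 falls among 14 tested genes (median -0.59). Scd1, the desaturase of saturated fatty acids, lay between 5689 and 22450 CPM (median 15490) in the Control libraries and between 72.1 and 12320 CPM (median 1864) in the PKA KD libraries, at -2.28 ± 0.68 (adjusted p = 0.00773), or -3.71 with limma-voom. Fads2, the desaturase of polyunsaturated fatty acids, ranged from 790 to 1524 CPM (median 1142) in Control and from 174 to 690 CPM (median 304) with PKA KD, at -1.64 ± 0.24 (adjusted p = 4.46e-07). Elovl2, an elongase of the same substrates, stood at 577 to 972 CPM (median 734) in Control and at 214 to 390 CPM (median 318) with PKA KD, at -1.30 ± 0.11 (adjusted p = 1.26e-13). Both of the latter separated the groups fully, while Scd1 did not. Elovl3 changed by -2.02 ± 0.43 (adjusted p = 0.000209), and Elovl1, which elongates saturated fatty acids, rose by 0.80 ± 0.06 (adjusted p = 1.61e-15), again with no overlap.

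Some of the largest falls were lipid droplet genes. Of 19 tested, 3 rose and 9 fell (median -0.21). Plin4 (Entrez gene 57435, chromosome 17, 56100587 to 56109948), a droplet coat protein, ranged from 38.1 to 146 CPM (median 90.8) in Control and from 3.38 to 24.9 CPM (median 6.67) with PKA KD, at -3.48 ± 0.47 (adjusted p = 6.07e-08), with no overlap. Cidea, which helps droplets fuse, stood at 7.62 to 29.4 CPM (median 22.3) in Control and at 0 to 9.96 CPM (median 0.88) with PKA KD, at -3.32 ± 0.64 (adjusted p = 4.97e-05). Plin2, the common coat protein of hepatocyte droplets, lay between 717 and 1096 CPM (median 808) in the Control libraries and between 313 and 717 CPM (median 360) in the PKA KD libraries, at -1.04 ± 0.16 (adjusted p = 1.18e-06), and its highest PKA KD library equalled the lowest Control library to 3 digits. G0s2, an inhibitor of the adipose triglyceride lipase, changed by -1.03 ± 0.29 (adjusted p = 0.00502), while Abhd5, the activator of that lipase, rose by 0.36 ± 0.064 (adjusted p = 1.16e-05). The droplet assembly gene Bscl2 (0.25 ± 0.063) and the droplet enzyme gene Hsd17b11 (0.48 ± 0.1) also rose.

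Adipocyte markers moved beside these genes. Cfd, the complement factor adipsin, ranged from 1.96 to 29.7 CPM (median 12.4) in Control and from 0.225 to 4.41 CPM (median 0.405) with PKA KD, at -3.75 ± 0.59 (adjusted p = 1.55e-06). Car3, a carbonic anhydrase that liver also makes, stood at 3352 to 5131 CPM (median 4227) in Control and at 1395 to 3014 CPM (median 2346) with PKA KD, at -0.90 ± 0.16 (adjusted p = 6.2e-06). Of 9 adipocyte markers 5 were tested, 1 rose (Adrb3, the adrenergic receptor of fat, 1.01 ± 0.23) and 2 fell, and Lep and Retn were at a median of 0 in both groups. The summed level of the list was 3460 to 5190 CPM in Control and 1490 to 3060 CPM with PKA KD, most of it Car3. The part of adipose RNA in the lipid gene falls was not tested.

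Cholesterol synthesis and uptake genes gave 0 rises and 13 falls among 31 tested genes (median -0.12), and 1 rise and 8 falls with scaling by total counts. Lss, which closes the sterol ring, ranged from 41.4 to 96.2 CPM (median 75.9) in Control and from 21.5 to 59.4 CPM (median 33.2) with PKA KD, at -1.02 ± 0.18 (adjusted p = 1.03e-05). Insig1, a sterol sensor partner induced by SREBP, stood at 347 to 529 CPM (median 405) in Control and at 127 to 335 CPM (median 215) with PKA KD, at -0.90 ± 0.14 (adjusted p = 1.26e-06), with no overlap. Dhcr7, of the last step, was at -0.78 ± 0.13 (adjusted p = 6.3e-06). Bile acid genes gave 3 rises and 2 falls among 25 tested genes (median 0.10), and 8 rises and 1 fall with scaling by total counts. Cyp2c70, which makes the muricholic acids of mice, lay between 85.1 and 168 CPM (median 122) in the Control libraries and between 140 and 560 CPM (median 337) in the PKA KD libraries, at 1.46 ± 0.22 (adjusted p = 6.23e-07), although Cyp2c paralogs could share reads. Akr1c6, a steroid dehydrogenase of this list, fell by 0.32 ± 0.085.

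Lipoprotein genes gave 5 rises and 5 falls among 24 tested genes (median -0.09), against 17.7% and 14.8% of all genes, and 7 rises and 4 falls with scaling by total counts. Lpl, lipoprotein lipase, which adult hepatocytes express little, ranged from 8.45 to 22.3 CPM (median 13.5) in Control and from 20.6 to 43.7 CPM (median 31) with PKA KD, at 1.12 ± 0.17 (adjusted p = 1.06e-06). Tm6sf2, a factor in loading very low density lipoprotein, rose by 0.52 ± 0.15 (adjusted p = 0.00448), Lipc, hepatic lipase, by 0.54 ± 0.10 (adjusted p = 3.61e-05), and Apom by 0.46 ± 0.12 (adjusted p = 0.00331). Apob, the structural protein of those particles, stood at 3329 to 4493 CPM (median 3750) in Control and at 2082 to 3472 CPM (median 2822) with PKA KD, at -0.46 ± 0.085 (adjusted p = 2.17e-05). Apoa5, which raises triglyceride clearance, changed by -0.49 ± 0.12 (adjusted p = 0.00152), Pltp, the phospholipid transfer protein, by -0.77 ± 0.25 (adjusted p = 0.015), and Apoc1 by -0.38 ± 0.13 (adjusted p = 0.0146).

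Mitochondrial ribosomal RNA was lower. Both mitochondrial ribosomal RNAs together took 0.164% ± 0.0213 (SD, n = 10) of the counts in Control and 0.0682% ± 0.0351 with PKA KD (two-sided permutation test with 100000 resamples, p = 4e-05). Control libraries spanned 0.14% to 0.213%, and PKA KD libraries 0.0417% to 0.161%, the highest being replicate 5. Since mRNA was purified with beads, ribosomal RNA is a remnant in these libraries, and its part in the falls of mitochondrial transcripts was not tested. The small rRNA mt-Rnr1 ranged from 646 to 1103 CPM (median 783) in Control and from 122 to 601 CPM (median 166) with PKA KD, at -1.91 ± 0.21 (adjusted p = 2.63e-10), and the large rRNA mt-Rnr2 stood at 747 to 1092 CPM (median 873) in Control and at 270 to 964 CPM (median 398) with PKA KD, at -0.97 ± 0.15 (adjusted p = 7.88e-07). Of 15 mitochondrially encoded genes, 0 rose and 6 fell (median log2 fold change -0.39), both rRNAs being among these falls. With scaling by total counts 0 rose and 4 fell. CYTB, the cytochrome b subunit, was at -0.61 ± 0.18 (adjusted p = 0.00509).

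Nuclear genes of oxidative phosphorylation gave 0 rises and 18 falls among 56 tested genes (median -0.10), and 2 rises and 9 falls with scaling by total counts. Ndufc1, a subunit of complex I, ranged from 11.3 to 15.9 CPM (median 13.3) in Control and from 4.67 to 13.1 CPM (median 6.47) with PKA KD, at -0.88 ± 0.12 (adjusted p = 5.04e-08). Ndufb9 (-0.58 ± 0.093) and Ndufc2 (-0.42 ± 0.074), of the same complex, and Atp5o (-0.33 ± 0.08), of ATP synthase, also fell. Cytosolic ribosomal protein genes gave 0 rises and 17 falls among 64 tested genes (median -0.10), among them Rpl12 (-0.45 ± 0.09, adjusted p = 7.61e-05), Rpl22 (-0.42 ± 0.094, adjusted p = 0.000355), Rpl4 (-0.34 ± 0.081, adjusted p = 0.000832) and Rpl15 (-0.32 ± 0.048, adjusted p = 4.12e-07). Of these, Rpl15 had no overlap between groups, from 141 to 167 CPM in Control and from 108 to 137 CPM with PKA KD. Ribosomal protein genes have many pseudogenes, with which their reads could be shared. PKA KD replicate 3 was the highest of its group for several genes of both lists, such as Rpl22 (102.7 CPM against a group median of 48.8) and Ndufb9 (163 against 91.3). Without it, ribosomal protein genes gave 0 rises and 31 falls and oxidative phosphorylation genes 0 rises and 23 falls. With scaling by total counts ribosomal protein genes gave 2 rises and 11 falls.

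Among glucose uptake and glycolysis genes, 5 of 24 rose (20.8%) and 5 fell (20.8%), with a median of -0.11. These shares were near the 17.7% and 14.8% of all tested genes. Without PKA KD replicates 5 and 7, 4 rose and 8 fell. Gpi1, which interconverts the hexose phosphates, ranged from 191 to 269 CPM (median 212) in Control and from 260 to 439 CPM (median 319) with PKA KD, at 0.62 ± 0.12 (adjusted p = 7.87e-05), and Aldoa, an aldolase, and Pgam1, a mutase lower in the pathway, rose by 0.42 ± 0.081 and 0.31 ± 0.056. Pdk1, which holds pyruvate dehydrogenase inactive, stood at 79.5 to 121 CPM (median 91.3) in Control and at 50.4 to 77.8 CPM (median 56.8) with PKA KD, at -0.63 ± 0.14 (adjusted p = 0.000274), Pfkm, a phosphofructokinase, was at -0.51 ± 0.071 (adjusted p = 7.84e-08), and Pfkfb1, the liver enzyme that makes and removes the phosphofructokinase activator and is a known PKA substrate, at -0.50 ± 0.11 (adjusted p = 0.000162). Each of these falls separated the groups fully.

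In the glycogen list, 2 of 18 rose and 4 fell (median -0.02), against 5 rises and 3 falls with scaling by total counts. Ugp2, which makes UDP-glucose for glycogen, ranged from 176 to 275 CPM (median 205) in Control and from 63.4 to 105 CPM (median 82.2) with PKA KD, at -1.33 ± 0.12 (adjusted p = 3.1e-13), with no overlap, and Gys2, the liver glycogen synthase, changed by -0.41 ± 0.10 (adjusted p = 0.00124). Ppp1r3g, a glycogen-targeting phosphatase subunit, stood at 0.329 to 4.18 CPM (median 0.805) in Control and at 0 to 0.361 CPM (median 0.0935) with PKA KD, at -3.17 ± 0.70 (adjusted p = 0.000298). Gyg, the primer protein glycogenin, lay between 4.88 and 7.42 CPM (median 5.71) in the Control libraries and between 6.58 and 9.5 CPM (median 9.22) in the PKA KD libraries, at 0.58 ± 0.12 (adjusted p = 8.06e-05). Insulin signalling and FOXO genes gave 5 rises and 8 falls among 27 tested genes (median -0.11), and 5 rises and 3 falls with scaling by total counts. Ide, the insulin-degrading enzyme (-0.54 ± 0.079, adjusted p = 3.03e-07), Foxo4 (-0.52 ± 0.073, adjusted p = 9.13e-08) and Akt2, the insulin-activated kinase (-0.33 ± 0.044, adjusted p = 4.3e-08), all fell without overlap, and Grb14, an adaptor that inhibits the insulin receptor, rose by 0.42 ± 0.071 (adjusted p = 4.22e-06).

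Hepatocytes express many genes by zone, periportal near the incoming blood and pericentral near the outgoing vein. Of 30 periportal genes, 3 rose and 11 fell (median -0.20), and of 30 pericentral genes, 10 rose and 2 fell (median 0.14). Periportal falls were the amino acid and gluconeogenesis genes above, among them Gls2, Tat, Pck1 and Ass1, while Hsd17b6, a steroid dehydrogenase of that list, ranged from 60.9 to 144 CPM (median 103) in Control and from 114 to 525 CPM (median 307) with PKA KD, at 1.62 ± 0.24 (adjusted p = 3.01e-07). Pericentral rises included Slc13a3, a dicarboxylate carrier, which stood at 24.3 to 41.9 CPM (median 34.5) in Control and at 54.6 to 97.5 CPM (median 68.9) with PKA KD, at 1.11 ± 0.20 (adjusted p = 2e-05), Rhbg, an ammonium carrier, which lay between 7.97 and 19.2 CPM (median 11.4) in the Control libraries and between 17.7 and 39.5 CPM (median 25.5) in the PKA KD libraries, at 1.10 ± 0.19 (adjusted p = 1.13e-05), and Cyp2a5 (1.13 ± 0.27). Lgr5, a receptor gene of the Wnt pathway and of the pericentral ring, fell (-0.77 ± 0.19, adjusted p = 0.00101), as did Oat.

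Of 41 tested cytochromes P450 of xenobiotic metabolism, 14 rose and 4 fell (median 0.25). Cyp2b10, the classic target of the receptor CAR, ranged from 0 to 1.84 CPM (median 0.299) in Control and from 0.599 to 6.93 CPM (median 2.42) with PKA KD, at 2.73 ± 0.55 (adjusted p = 9.45e-05), and Cyp2d12 stood at 0.246 to 0.886 CPM (median 0.433) in Control and at 2.97 to 24.3 CPM (median 5.89) with PKA KD, at 4.21 ± 0.42 (adjusted p = 3.26e-11). Cyp2c54 was at 1.36 ± 0.42. Cyp3a25, a target of the xenobiotic receptor PXR, lay between 168 and 304 CPM (median 222) in the Control libraries and between 70.9 and 168 CPM (median 112) in the PKA KD libraries, at -1.0 ± 0.13 (adjusted p = 4.11e-08), with Cyp2d40 (-1.37 ± 0.14) and Cyp3a59 (-1.33 ± 0.21) also lower. These genes lie in families of close paralogs, so single values are uncertain. Nr1i2, which encodes PXR, ranged from 55.7 to 69.7 CPM (median 61) in Control and from 32.8 to 45.3 CPM (median 39.2) with PKA KD, at -0.65 ± 0.068 (adjusted p = 8.57e-11), with no overlap. Among 24 nuclear receptor genes, 3 rose and 6 fell (median 0.04), and with scaling by total counts 6 rose and 5 fell. Esr1, the oestrogen receptor (-0.76 ± 0.16, adjusted p = 0.000168), was a further fall, and Ahr, the dioxin receptor (0.55 ± 0.12, adjusted p = 0.000457), was a rise.

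Conjugation enzymes gave 10 rises and 7 falls among 41 tested genes (median 0.05), against 17.7% and 14.8% of all genes. With scaling by total counts they gave 15 rises and 3 falls. Sult2a7, a sulfotransferase with close paralogs, ranged from 0.443 to 0.968 CPM (median 0.64) in Control and from 0.866 to 31.6 CPM (median 11.9) with PKA KD, at 4.37 ± 0.39 (adjusted p = 1.23e-12). Sult1b1, which sulfates phenols and thyroid hormone, stood at 7.42 to 13.5 CPM (median 11.8) in Control and at 15.5 to 24 CPM (median 19.7) with PKA KD, at 0.79 ± 0.12 (adjusted p = 3.55e-07). Gsta3, an abundant glutathione transferase, lay between 1184 and 1663 CPM (median 1493) in the Control libraries and between 712 and 1188 CPM (median 921) in the PKA KD libraries, at -0.68 ± 0.11 (adjusted p = 4.35e-06). Of these, Sult1b1 alone had groups without overlap. In the NRF2 antioxidant list, 5 of 22 rose and 4 fell (median 0.01), shares near those of all genes. Without PKA KD replicates 5 and 7, 4 rose and 5 fell. Osgin1, an oxidative stress-induced growth inhibitor, ranged from 103 to 208 CPM (median 137) in Control and from 226 to 467 CPM (median 334) with PKA KD, at 1.28 ± 0.23 (adjusted p = 1.24e-05), with no overlap. Both subunits of the rate-limiting enzyme of glutathione synthesis were called and moved apart, with Gclm, the modifier, at 0.37 ± 0.067 (adjusted p = 1.58e-05) and Gclc, the catalytic subunit, at -0.66 ± 0.14 (adjusted p = 0.000145).

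Many liver genes differ in level between male and female mice. Of 26 male-biased genes, 9 rose and 1 fell (median 0.59), and of 22 female-biased genes, 2 rose and 1 fell (median 0.24). The female-biased list gave 2 rises and 3 falls (median -0.01) without PKA KD replicates 5 and 7 and 4 rises and 1 fall with scaling by total counts, and the male-biased list 9 rises and 2 falls without those replicates. Mup21, a major urinary protein, ranged from 29.9 to 284 CPM (median 98) in Control and from 186 to 1288 CPM (median 688) with PKA KD, at 2.53 ± 0.42 (adjusted p = 3.45e-06). Mup20, another of them, stood at 2276 to 8100 CPM (median 4115) in Control and at 5665 to 16220 CPM (median 6902) with PKA KD, at 0.87 ± 0.27 (adjusted p = 0.011). Reads of Mup genes could be split among near-identical copies. Growth hormone signalling sets these patterns in liver, and in its list 3 of 15 rose and 1 fell (median 0.09), and with scaling by total counts 5 rose and 1 fell. Socs2, a feedback inhibitor induced by growth hormone, lay between 2.24 and 28.5 CPM (median 9.39) in the Control libraries and between 6.28 and 64.9 CPM (median 26) in the PKA KD libraries, at 1.53 ± 0.45 (adjusted p = 0.00711). Ghr, its receptor, ranged from 308 to 405 CPM (median 347) in Control and from 168 to 284 CPM (median 210) with PKA KD, at -0.70 ± 0.08 (adjusted p = 5.42e-10), with no overlap.

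The largest rises included imprinted and fetal RNAs with Control medians of at most 1 CPM. Meg3 (Entrez gene 17263, chromosome 12, 109540996 to 109571729), an imprinted long non-coding RNA, ranged from 0.682 to 1.5 CPM (median 1) in Control and from 4.59 to 114 CPM (median 39.3) with PKA KD, at 5.26 ± 0.47 (adjusted p = 1.86e-12). Rian, a neighbouring imprinted non-coding RNA, stood at 0.0492 to 0.36 CPM (median 0.174) in Control and at 0.664 to 14.8 CPM (median 4.66) with PKA KD, at 4.77 ± 0.51 (adjusted p = 1.58e-10). H19, the imprinted fetal liver RNA, lay between 0 and 2.02 CPM (median 0.413) in the Control libraries and between 9.23 and 40.7 CPM (median 19.6) in the PKA KD libraries, at 4.97 ± 0.67 (adjusted p = 6.67e-08). All 3 separated the groups fully, but with wide spreads among PKA KD libraries. Afp, the fetal albumin, ranged from 0.625 to 1.24 CPM (median 0.934) in Control and from 2.52 to 4.16 CPM (median 2.69) with PKA KD, at 1.63 ± 0.17 (adjusted p = 6.85e-11), also with no overlap. Over 23 tested fetal and imprinted RNAs, 9 rose and 1 fell (median 0.42). Without PKA KD replicates 5 and 7, 9 rose and 2 fell (median 0.12).

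The next rises were genes of unlike functions, each from a level of few CPM. Ly6c1, a surface antigen with a close paralog, ranged from 0 to 0.76 CPM (median 0.331) in Control and from 4.1 to 20.7 CPM (median 12) with PKA KD, at 4.92 ± 0.35 (adjusted p = 6.88e-16). Gipc2, a PDZ scaffold protein, stood at 0.0369 to 1.04 CPM (median 0.187) in Control and at 2.47 to 23.5 CPM (median 4.75) with PKA KD, at 4.33 ± 0.67 (adjusted p = 1.13e-06). Pls1, an actin-bundling plastin, lay between 1.09 and 6.83 CPM (median 2.45) in the Control libraries and between 30.7 and 53 CPM (median 43.2) in the PKA KD libraries, at 3.74 ± 0.41 (adjusted p = 5.55e-10). In these 3 genes no PKA KD library reached down to Control. Pde6c, the cone photoreceptor phosphodiesterase, changed by 4.06 ± 0.46 (adjusted p = 6.02e-10), Adam11, a membrane protein of the ADAM family without protease activity, by 3.29 ± 0.21 (adjusted p = 2.89e-17), and H4c8, a histone gene, by 2.99 ± 0.25 (adjusted p = 1.16e-13). Capn8, a calpain (2.90 ± 0.75), Defb1, a defensin (2.76 ± 0.33), Ihh, a hedgehog ligand (2.67 ± 0.28), and Cib3, a calcium-binding protein (2.62 ± 0.52), completed the rises named by size with Cyp4a31.

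Further large falls were as follows. Mfsd2a, the carrier of lysophosphatidylcholine with docosahexaenoic acid, ranged from 45.7 to 125 CPM (median 74.5) in Control and from 1.74 to 34 CPM (median 5.67) with PKA KD, at -3.24 ± 0.51 (adjusted p = 1.84e-06). Cyb5r3 (Entrez gene 109754, chromosome 15, 83153495 to 83176440), the cytochrome b5 reductase that feeds electrons to desaturases, stood at 711 to 880 CPM (median 779) in Control and at 89 to 233 CPM (median 113) with PKA KD, at -2.61 ± 0.14 (adjusted p = 6.18e-21). Prg4, the lubricating proteoglycan, lay between 125 and 179 CPM (median 148) in the Control libraries and between 13.9 and 76.6 CPM (median 20.1) in the PKA KD libraries, at -2.48 ± 0.26 (adjusted p = 1.48e-10). All 3 separated the groups fully, as did As3mt, the arsenite methyltransferase (-1.87 ± 0.17, adjusted p = 1.01e-12), and the non-coding RNA Ctcflos (-2.40 ± 0.27, adjusted p = 5.02e-10). Among abundant genes that rose were Ahsg, the plasma protein fetuin A, which ranged from 3880 to 6204 CPM (median 4865) in Control and from 5176 to 8740 CPM (median 7081) with PKA KD, at 0.53 ± 0.13 (adjusted p = 0.00161), and Mug1, a protease inhibitor of the murinoglobulin family, which stood at 1790 to 3672 CPM (median 2610) in Control and at 1572 to 6613 CPM (median 4915) with PKA KD, at 0.82 ± 0.22 (adjusted p = 0.00262). Cyp2e1, the ethanol-oxidising P450, was at 0.52 ± 0.18 (adjusted p = 0.0238), and its call was lost without Control replicate 8 (0.46, adjusted p = 0.052) and without PKA KD replicates 2 (0.44, adjusted p = 0.0667), 4 (0.45, adjusted p = 0.0602) or 6 (0.42, adjusted p = 0.0738). It was lost too when edgeR used these 2 groups only (0.53, adjusted p = 0.0621) and with limma-voom (0.40, adjusted p = 0.0964).

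**Figure D3:**
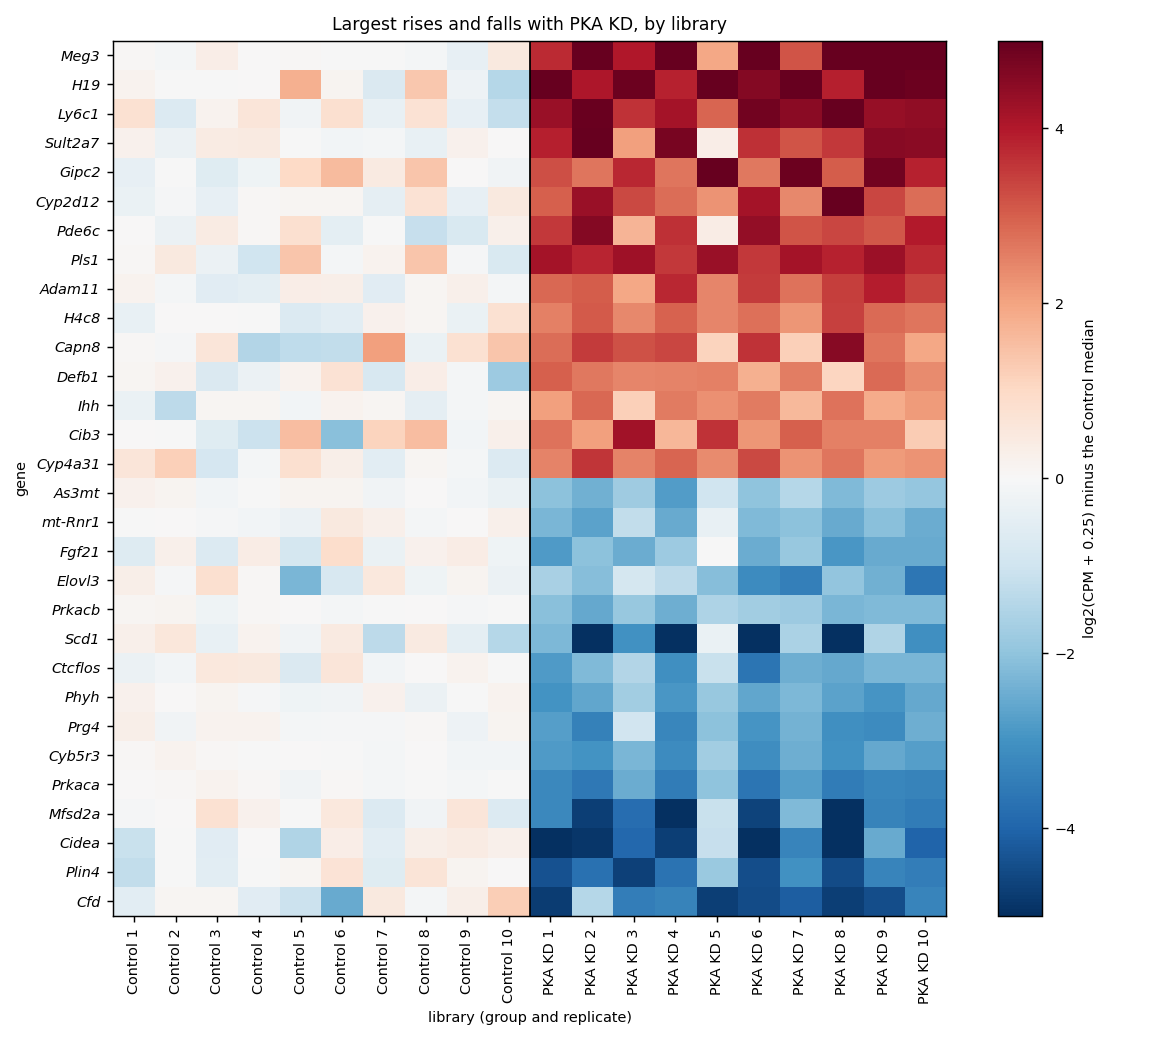
Heat map of log2(CPM + 0.25) minus the Control median for the 15 largest rises and the 15 largest falls (rows) in the 10 Control and 10 PKA KD libraries (columns), with colours from -5 (blue) to 5 (red). The PKA KD columns are red for the rises and blue for the falls, and replicate 5 is paler for mt-Rnr1 and Fgf21.

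Interferon-stimulated genes, which cells switch on against viruses, gave many rises. Of 40 tested, 20 rose and 1 fell (median 0.36), against 17.7% of all genes that rose. Rsad2, the antiviral protein viperin, ranged from 12.4 to 25.4 CPM (median 17.5) in Control and from 29.1 to 80.1 CPM (median 43.5) with PKA KD, at 1.40 ± 0.22 (adjusted p = 9.76e-07), with no overlap. Oasl2, an oligoadenylate synthetase-like protein, stood at 6.76 to 12.5 CPM (median 8.39) in Control and at 9.07 to 31.4 CPM (median 19) with PKA KD, at 1.07 ± 0.17 (adjusted p = 2.06e-06). Ifit1 was at 1.03 ± 0.27 (adjusted p = 0.00254) and Ifit3b at 1.03 ± 0.23 (adjusted p = 0.000331), with overlapping groups for both. Stat2, part of the transcription factor that carries the interferon signal, was the fall, at -0.45 ± 0.078 (adjusted p = 7.32e-06).

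Of 24 p53 target genes, 9 rose and 1 fell (median 0.30). Without PKA KD replicates 5 and 7, 6 rose and 1 fell, and with scaling by total counts 14 rose and 1 fell. Cdkn1a, the cell cycle inhibitor, ranged from 8.22 to 34.5 CPM (median 17.5) in Control and from 14 to 92.2 CPM (median 37.2) with PKA KD, at 1.06 ± 0.31 (adjusted p = 0.00606). Phlda3, an inhibitor of AKT, stood at 1.19 to 3.36 CPM (median 2.02) in Control and at 1.91 to 11.5 CPM (median 4.04) with PKA KD, at 1.27 ± 0.30 (adjusted p = 0.000711). Eda2r, an ectodysplasin receptor, lay between 0.627 and 3.04 CPM (median 1.46) in the Control libraries and between 1.79 and 5.11 CPM (median 2.76) in the PKA KD libraries, at 1.01 ± 0.24 (adjusted p = 0.000881). The groups overlapped for all 3. Plk3, a stress kinase of the same list, changed by -1.30 ± 0.34 (adjusted p = 0.00193). Cell cycle and DNA replication genes gave 4 rises and 5 falls among 32 tested genes (median 0.03), shares near those of all genes. They gave 4 rises and 2 falls with scaling by total counts and 3 rises and 7 falls (median -0.27) without PKA KD replicates 5 and 7. Ccne2, a cyclin of the start of replication, was at 1.42 ± 0.27 (adjusted p = 2.77e-05), E2f1 at 0.49 ± 0.12 (adjusted p = 0.00161), Cdk2 at -0.48 ± 0.08 (adjusted p = 2.93e-06) and Pcna, the replication clamp, at -0.35 ± 0.081 (adjusted p = 0.000592).

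Of 28 endoplasmic reticulum chaperone and unfolded protein genes, 6 rose and 1 fell (median 0.14), against 11 rises and 0 falls with scaling by total counts and 4 rises and 2 falls without PKA KD replicate 3. Derl3, of the disposal channel for misfolded proteins, ranged from 1.01 to 7.75 CPM (median 2.12) in Control and from 5.34 to 23.2 CPM (median 8.47) with PKA KD, at 1.89 ± 0.48 (adjusted p = 0.00156). Ero1a, the oxidase that drives disulfide formation, stood at 11.3 to 15 CPM (median 13.1) in Control and at 15.8 to 22.3 CPM (median 19.2) with PKA KD, at 0.55 ± 0.071 (adjusted p = 1.16e-08), with no overlap. Dnajb9 (0.69 ± 0.16) and Pdia6 (0.35 ± 0.093), a chaperone partner and a disulfide isomerase, also rose. The list of ATF4 targets, induced by amino acid shortage, gave 4 rises and 8 falls among 26 tested genes (median -0.20). Atf5, a related transcription factor, lay between 231 and 424 CPM (median 296) in the Control libraries and between 108 and 277 CPM (median 134) in the PKA KD libraries, at -1.07 ± 0.15 (adjusted p = 2.31e-07), Aldh1l2, a mitochondrial folate enzyme, was at -1.61 ± 0.33 (adjusted p = 0.000123) and Vldlr, a lipoprotein receptor, at -1.51 ± 0.43 (adjusted p = 0.00444). Sesn2, a leucine sensor, rose by 0.44 ± 0.12 (adjusted p = 0.00358).

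Lysosome and autophagy genes gave 11 rises and 7 falls among 36 tested genes (median -0.03), and 12 rises and 3 falls with scaling by total counts. Ctsl, a lysosomal protease, ranged from 461 to 642 CPM (median 556) in Control and from 650 to 1095 CPM (median 731) with PKA KD, at 0.50 ± 0.084 (adjusted p = 4.59e-06), with no overlap, and Ctsf, another protease, rose by 0.53 ± 0.07 (adjusted p = 2.28e-08). Ulk1, the kinase that starts autophagy, stood at 84.6 to 137 CPM (median 105) in Control and at 51.5 to 67.9 CPM (median 60.4) with PKA KD, at -0.81 ± 0.08 (adjusted p = 8.68e-12). Glb1, the lysosomal galactosidase, lay between 13.1 and 17.1 CPM (median 15.2) in the Control libraries and between 7.47 and 10.9 CPM (median 9.63) in the PKA KD libraries, at -0.68 ± 0.064 (adjusted p = 2.09e-12). Neither of these falls had overlapping groups. Map1lc3a, of the autophagosome membrane, changed by -0.74 ± 0.11 (adjusted p = 3.39e-07). Proteasome subunits gave 7 rises and 4 falls among 31 tested genes (median 0.05), shares near those of all genes. They gave 12 rises and 3 falls with scaling by total counts and 4 rises and 4 falls without PKA KD replicate 3. Psmb5 was at 0.29 ± 0.074 (adjusted p = 0.00144), Psmc6 at -0.38 ± 0.067 (adjusted p = 1.01e-05), Psma7 at -0.33 ± 0.064 (adjusted p = 3.38e-05) and Psmd4 at -0.30 ± 0.058 (adjusted p = 3.99e-05). Of 21 clock genes, 2 rose and 2 fell, among them Cry1 (0.88 ± 0.28, adjusted p = 0.0128) and Cry2 (-0.56 ± 0.12, adjusted p = 0.000364), a pair of repressors that moved apart, and Csnk1d, a clock kinase (-0.33 ± 0.045, adjusted p = 3.94e-08).

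Secreted hepatic factors changed one by one. Of 27 hepatokines and metabolic hormones, 8 rose and 4 fell (median 0.07). Inhba, which encodes the activin A chain, ranged from 2.68 to 6.2 CPM (median 3.92) in Control and from 8.41 to 19 CPM (median 11.7) with PKA KD, at 1.65 ± 0.20 (adjusted p = 4.39e-09). Inhbe, the activin E chain made almost only in liver, stood at 95.3 to 140 CPM (median 110) in Control and at 47.6 to 84 CPM (median 63.4) with PKA KD, at -0.82 ± 0.12 (adjusted p = 5.52e-07). Both activin chains separated the groups fully, in opposite directions. Lepr, the leptin receptor, whose soluble form the liver releases, lay between 0.844 and 2.68 CPM (median 1.73) in the Control libraries and between 2.61 and 9.44 CPM (median 5.29) in the PKA KD libraries, at 1.73 ± 0.22 (adjusted p = 8.25e-09). Enho, which encodes adropin, rose by 1.80 ± 0.46 (adjusted p = 0.00196), and Igfbp3 and Igfbp4, carriers of insulin-like growth factors, changed by -0.70 ± 0.17 (adjusted p = 0.00109) and -0.38 ± 0.10 (adjusted p = 0.00301). In the clotting and complement list, 10 of 45 rose and 7 fell (median 0.06), shares near those of all genes. C2 of the classical complement pathway ranged from 53.2 to 76 CPM (median 57.9) in Control and from 82.1 to 177 CPM (median 128) with PKA KD, at 1.07 ± 0.12 (adjusted p = 2.96e-10), with no overlap, C8b was at 1.28 ± 0.36 (adjusted p = 0.00509), and C8g at -0.93 ± 0.11 (adjusted p = 2.6e-09). C1ra (0.85 ± 0.12) and F13b, a clotting factor subunit (0.65 ± 0.091), rose, and Klkb1, plasma prekallikrein (-0.68 ± 0.11), fell.

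Acute phase genes gave 6 rises and 3 falls among 29 tested genes (median -0.03), shares near those of all genes. They gave 6 rises and 1 fall with scaling by total counts, and 4 rises and 5 falls (median -0.15) without PKA KD replicate 3. Apcs, serum amyloid P, ranged from 21.9 to 37 CPM (median 29.8) in Control and from 59.1 to 154 CPM (median 107) with PKA KD, at 1.81 ± 0.29 (adjusted p = 1.64e-06), with no overlap, Serpina3n rose by 0.51 ± 0.14 (adjusted p = 0.00403), and Crp, C-reactive protein, changed by -0.42 ± 0.068 (adjusted p = 2.37e-06). Iron genes gave 1 rise and 3 falls of 20 (4 rises and 2 falls with scaling by total counts, 2 rises and 2 falls without PKA KD replicate 3), with Hjv, the hepcidin coreceptor, at 0.48 ± 0.086 (adjusted p = 1.19e-05), Hfe, its partner in iron sensing, at -0.47 ± 0.06 (adjusted p = 1.07e-08), and Slc11a2, an iron carrier, at -0.39 ± 0.083 (adjusted p = 0.000185). Among 25 hepatocyte transcription factors, 4 rose and 4 fell (median -0.04), shares near those of all genes. With scaling by total counts 4 rose and 1 fell. Foxa1 (0.59 ± 0.17, adjusted p = 0.00407) rose and Foxa3 (-0.80 ± 0.17, adjusted p = 0.000174), a relative of Foxa1, fell.

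PKA KD was then compared directly with the knockdowns upstream of it. Tested against Gnas KD, 2494 genes (18.4%) were higher and 2119 (15.6%) lower, and against Gcgr KD 2346 (17.3%) and 1953 (14.4%). Because all 3 share the Control libraries, fold changes against Control are only set side by side. The direct tests in turn use the same PKA KD libraries as the test against Control, so no overlap between their calls is given.

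For the glucagon targets Pck1, Tat, Gls2, Oat and Arg1 no difference from Gnas KD passed the test. Pck1 was at 0.07 ± 0.19 (adjusted p = 0.799) relative to Gnas KD, Tat at -0.17 ± 0.21 (adjusted p = 0.552), Gls2 at -0.25 ± 0.21 (adjusted p = 0.374), Oat at -0.03 ± 0.19 (adjusted p = 0.932) and Arg1 at 0.10 ± 0.087 (adjusted p = 0.382). Their changes against Control were -1.03, -1.14, -1.16, -1.27 and -0.79 with PKA KD and -1.10, -0.97, -0.91, -1.25 and -0.89 with Gnas KD. A p that misses the threshold does not show that the knockdowns act alike, and differences of up to about 2 SE either way lie within the error of each. Among other metabolic genes, Ppara (-0.86 ± 0.12, adjusted p = 1.09e-07), Lpin1 (-0.90 ± 0.23, adjusted p = 0.00217) and the gluconeogenesis gene Fbp1 (-0.39 ± 0.12, adjusted p = 0.0107) were lower with PKA KD than with Gnas KD. Of 21 gluconeogenesis genes, 3 were lower and 6 higher than in Gnas KD, and of 13 urea cycle genes 3 and 1. Over all genes these shares were 15.6% and 18.4%.

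The largest differences from Gnas KD, among genes also called in the same direction against Control, lay in other genes. Sult2a7 was at 4.44 ± 0.40 (adjusted p = 8.45e-13), with -0.07 for Gnas KD against Control. Ly6c1 was at 4.27 ± 0.34 (adjusted p = 1.13e-14), the non-coding RNA Snhg11 at 2.99 ± 0.21 (adjusted p = 6.05e-16), Meg3 at 2.81 ± 0.40 (adjusted p = 3.29e-07) and Gipc2 at 2.73 ± 0.59 (adjusted p = 0.000277). On the lower side Plin4 was at -3.57 ± 0.47 (adjusted p = 4.62e-08), Prg4 at -2.96 ± 0.27 (adjusted p = 1.63e-12), Cyb5r3 at -2.40 ± 0.14 (adjusted p = 6.47e-20) and Cidea at -2.19 ± 0.63 (adjusted p = 0.00554), besides Prkaca itself. Phyh (-2.06 ± 0.11, adjusted p = 2.78e-20) and mt-Rnr1 (-1.71 ± 0.21, adjusted p = 4.94e-09) also differed. Against Control, Gnas KD gave 0.09 for Plin4, 0.48 for Prg4, -0.22 for Cyb5r3, -0.41 for Phyh and -0.20 for mt-Rnr1. In the same order these genes were at -2.06, -0.66, -0.74, -0.21 and 1.27 with Prkar1a KD against Control AAV. Effects of the hairpins on genes other than their targets were not tested. As the hairpin sequences are not stated, such effects and loss of PKA cannot be told apart here.

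By gene list, members lower and members higher than in Gnas KD were counted the same way and read against 15.6% lower and 18.4% higher of all genes. Of 41 conjugation enzymes, 0 were lower and 25 higher, of 41 P450 genes 3 and 18, of 22 NRF2 antioxidant genes 1 and 12, of 31 proteasome subunits 2 and 16, of 40 interferon-stimulated genes 1 and 19, and of 15 Cyp4a and thioesterase genes 0 and 10. Of 32 cell cycle genes, 18 were lower and 2 higher, of 29 acute phase genes 16 and 3, and of 26 ATF4 stress genes 14 and 3. Of 12 stellate and fibroblast markers, 7 were lower than in Gnas KD and 0 higher, and the part of those cells in these counts was not tested. Fatty acid oxidation genes (8 lower and 3 higher of 29), lipogenesis genes (4 and 4 of 22) and gluconeogenesis genes (3 and 6 of 21) gave calls in both directions.

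Prkar1a KD, from separate libraries with their own controls (11.6 M to 19.3 M counts, median 16.6 M), gave 3761 rises (29.3%) and 3462 falls (26.9%) of 12847 tested genes. Prkar1a itself was at -1.94 ± 0.058 there (adjusted p = 3.1e-27). Of the 9 PKA subunit and inhibitor genes tested in both, Prkar2a (-0.97) and Pkig (-0.35) also fell, Prkacb rose (0.24) and the others did not pass. Of the 1985 PKA KD falls tested in both experiments, 30.4% rose and 34.4% fell with Prkar1a KD. Of the 2235 PKA KD rises, 35% fell and 27.7% rose. Over all 12746 genes tested in both, 29.2% rose and 27.1% fell with Prkar1a KD. Seen from the other side, PKA KD falls made up 16.3% of Prkar1a KD rises and 19.7% of its falls, and PKA KD rises made up 22.6% of its falls and 16.7% of its rises.

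In 7 amino acid and gluconeogenesis lists combined (gluconeogenesis, urea cycle, tyrosine, tryptophan, serine, methionine, and histidine with proline and arginine; 100 tested genes), 40 fell with PKA KD, and of these 22 rose, 10 fell and 8 did not pass with Prkar1a KD. Whatever PKA KD did, 47 of the 98 members tested in both rose and 27 fell with Prkar1a KD. In 5 lipid lists combined (lipogenesis, desaturases, droplets, fatty acid oxidation and peroxisomes; 120 tested genes), 65 fell with PKA KD, and of these 11 rose, 47 fell and 7 did not pass. Of all 120 members, 14 rose and 87 fell with Prkar1a KD, much the same share of falls as among the 65. Of 30 periportal genes 20 rose with Prkar1a KD, among them all 11 PKA KD falls, of 64 ribosomal protein genes 43 rose, among them 15 of 17 PKA KD falls, and of 25 amino acid transporters 13 rose, among them 6 of 7 PKA KD falls. The 5 of 15 mitochondrially encoded RNAs that rose with Prkar1a KD were all among the 6 that fell with PKA KD. Of 31 cholesterol genes 26 fell with Prkar1a KD, among them all 13 PKA KD falls, and of 22 lipogenesis genes 15 fell, among them 10 of 11 PKA KD falls. Of 40 interferon-stimulated genes 37 rose with Prkar1a KD, among them 18 of the 20 PKA KD rises, and of 38 P450 genes 31 fell, among them 12 of 13 PKA KD rises. No test of these overlaps was made.

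Tat, Pck1, Gls2 and G6pc were at 2.53, 2.55, 2.04 and 1.53 with Prkar1a KD against -1.14, -1.03, -1.16 and -1.18 with PKA KD. Oat (1.38), Cbs (1.37), Gnmt (1.55) and mt-Rnr1 (1.27) rose with Prkar1a KD as well. Fasn, Scd1, Insig1 and Ppara were at -2.42, -3.67, -1.48 and -1.05 with Prkar1a KD, lower in both experiments. Plin4 (-2.06) and Fabp1 (-2.18) fell in both too, and Bhmt, a rise with PKA KD, was at -1.40. Fads2 (-0.03) and Elovl2 (0.05), which fell with PKA KD, did not pass with Prkar1a KD. Meg3 and Rian rose in both, at 4.88 and 5.68 with Prkar1a KD, but H19 did not pass there (-0.25, adjusted p = 0.873).

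Among the rises with PKA KD that were most opposed, Snhg11 ranged from 11.6 to 22.2 CPM (median 13.8) in Control and from 60.1 to 123 CPM (median 88.7) with PKA KD and was at 2.52 ± 0.21 (adjusted p = 7.7e-14). In the second experiment it had 142 to 400 counts in the Control AAV libraries and 6 to 17 with Prkar1a KD (-4.67 ± 0.31, adjusted p = 1.58e-15). Pls1 was at -2.87 ± 0.56 (adjusted p = 3.52e-05) and Defb1 at -3.15 ± 0.44 (adjusted p = 1.31e-07). Rarres1, a gene of the retinoid response, stood at 14.2 to 48.6 CPM (median 27.3) in Control and at 59 to 136 CPM (median 82.2) with PKA KD, at 1.71 ± 0.19 (adjusted p = 7.34e-10), and fell from 222 to 928 counts in the Control AAV libraries to 0 to 14 with Prkar1a KD. For Pde6c, Orm3 and Cyp2b10, 8 of 10 Prkar1a KD libraries had 0 counts and the other 2 had at most 2, so no fold is given for them there. Their Control AAV counts were 3 to 34, 14 to 228 and 0 to 28. Orm3, an acute phase gene with close paralogs, was at 1.81 ± 0.28 (adjusted p = 8.41e-07) with PKA KD.

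**Figure D4:**
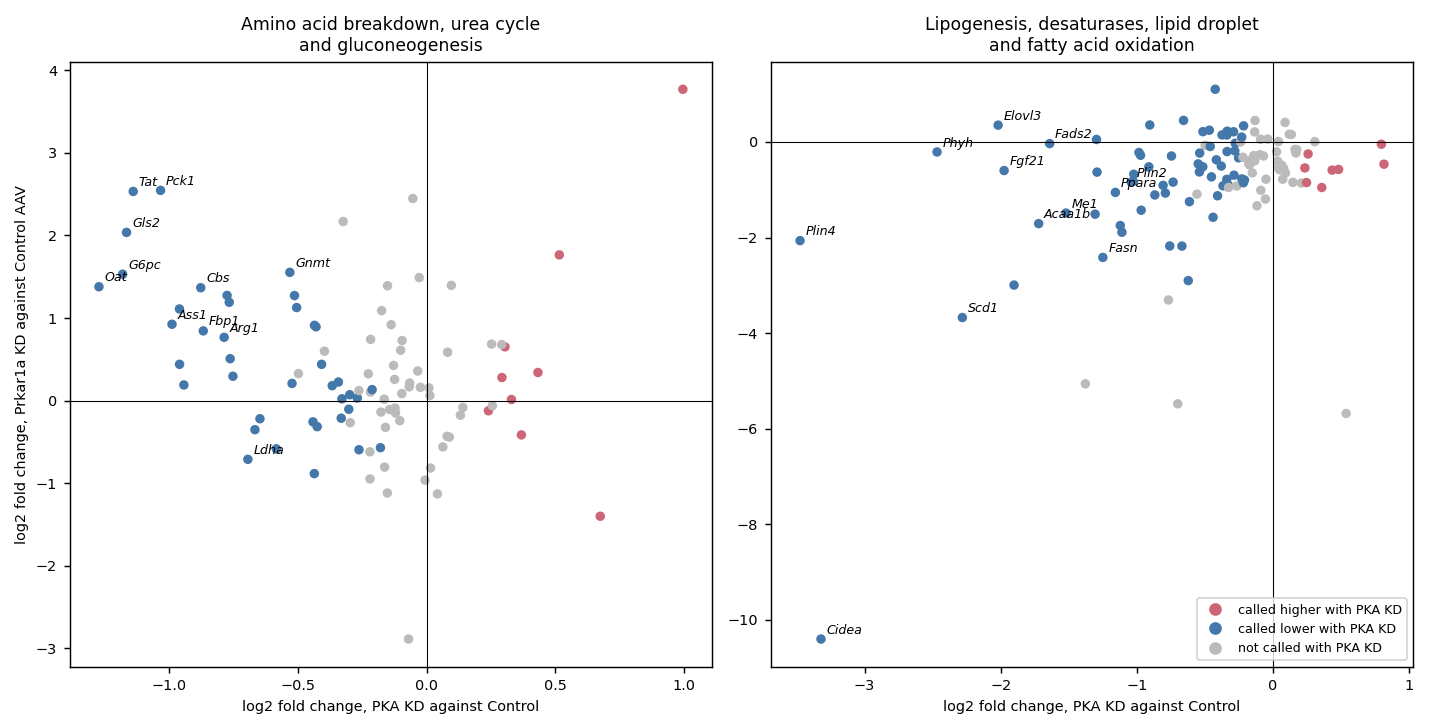
Log2 fold change with PKA KD against Control (x axis) and with Prkar1a KD against Control AAV (y axis) for the members of the amino acid, urea and gluconeogenesis lists (left) and of the lipid lists (right); each point is a gene. On the left 22 of the 40 genes that fell with PKA KD lie above 0 as called rises with Prkar1a KD, and on the right 47 of 65 lie below 0 as called falls.

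Knockdown was uneven, so residual Prkaca was set against 4 genes within the 10 PKA KD libraries (two-sided permutation tests with 100000 resamples, adjusted over the 4 relations). Meg3 was higher where less Prkaca remained, with Pearson's r = -0.872 (p = 0.00122, adjusted p = 0.00488) and Spearman's rho = -0.77 (p = 0.0125, adjusted p = 0.0502). Without the 2 libraries farthest from the median of Prkaca, r was -0.822 (p = 0.0109) and rho -0.619 (p = 0.114, permutation tests). The rank relation thus passed neither with all 10 libraries after adjustment nor without those 2. Prkacb followed Prkaca at r = 0.697 (p = 0.0236, adjusted p = 0.0472) and rho = 0.552 (p = 0.104, adjusted p = 0.207). Its r fell to 0.394 without those 2 libraries, so this relation rests on them. Fgf21 gave r = 0.659 (p = 0.0485, adjusted p = 0.0647) and rho = 0.115 (p = 0.757, adjusted p = 0.757), and r = 0.159 without the 2 libraries. Cfd gave r = -0.286 (p = 0.417, adjusted p = 0.417) and rho = -0.358 (p = 0.311, adjusted p = 0.415), and r = -0.293 without them. Since PKA KD replicate 5 is also the library that stood apart most on the second principal component, residual Prkaca and that difference cannot be told apart.

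**Figure D5:**
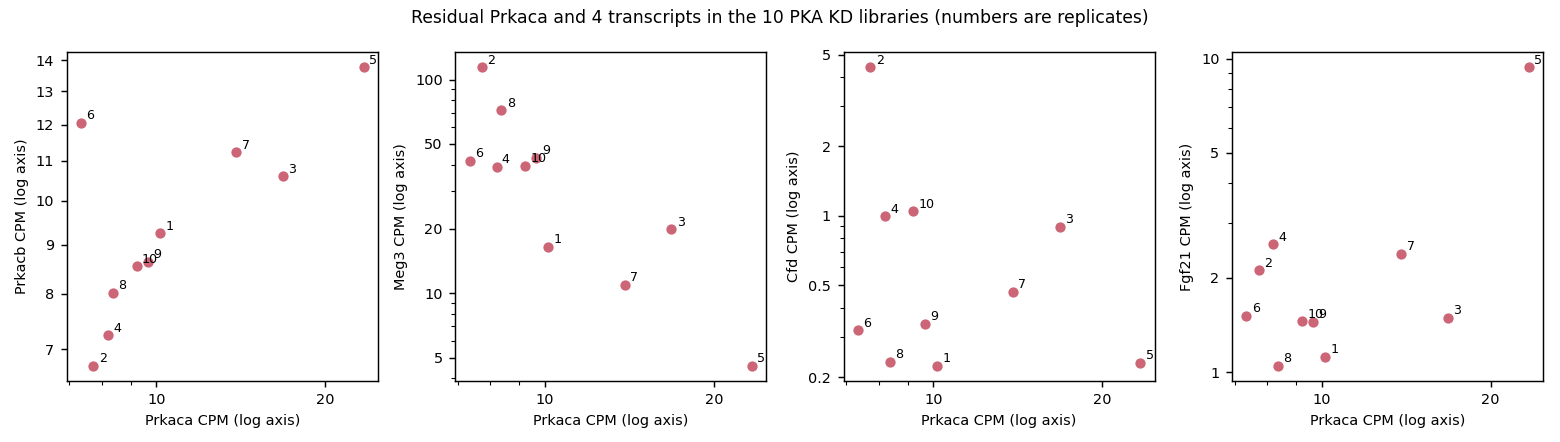
CPM of Prkacb, Meg3, Cfd and Fgf21 (y axes, log scale) against CPM of Prkaca (x axis, log scale) in the 10 PKA KD libraries; each point is a library. Meg3 declines from left to right (r = -0.872), while the relations of Prkacb and Fgf21 depend on the libraries with the most Prkaca.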

How the data were processed

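Per the labels' protocols, liver RNA was extracted on magnetic beads with DNase digestion, mRNA was captured on beads, and strand-specific libraries were amplified by PCR. The authors deposited expected counts per gene. 8.69% of the entries of the first experiment and 8.55% of the second were not whole, and all were rounded to whole numbers here. Reads were converted with bcl2fastq 2.17 and checked with FastQC, and the build is GRCm38 (mm10), per the submitters' processing notes. The aligner and the counting program are not named in these sources. Of 24475 gene IDs in the deposited tables, 24375 matched a symbol in the RefSeq table (GRCm38.p6).

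Counts were fitted with edgeR 4.0.16 (limma 3.58.1, R 4.3.3): TMM scaling, filterByExpr, robust quasi-likelihood tests over all 50 libraries of the first experiment or 40 of the second, Benjamini-Hochberg adjustment over all tested genes, and calls at an adjusted p under 0.05. The SE is the log2 fold change divided by the square root of F. Log2 CPM for the principal components used a prior count of 2. Permutation tests used Python 3.11.15 and scipy 1.17.1. The scripts were tested on simulated data with 200 changed genes. They recovered 60% of 1.5-fold, 83.67% of 2-fold and 100% of 4-fold changes, and 6.67% of the calls were false.

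The comparison, gene lists and tests were chosen with earlier results of these data known. Genes were named as all PKA subunits and inhibitors, the 15 largest rises and 15 largest falls at or above an average log2 CPM of 1 and with every PKA KD library past the Control median, the 5 called genes of highest mean CPM in each direction with a change of at least 0.5, up to 4 called genes per direction and list, the 5 largest differences from Gnas KD in each direction, the 6 most opposed with Prkar1a KD, and the genes set against Prkaca. Alternatives were DESeq2 1.42.0, limma-voom, RLE and total count scaling, no filter, these 2 groups alone, a replicate block and leaving out each library. A few list members that met the naming rule are not reported here.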

Additional observations from a re-analysis of the deposited data

Results flagged for a closer look

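For each gene named in the text, the highest and the lowest library of each group were examined for their distance from the nearest other library, as a share of the group's whole range of log2 CPM. Of 476 groups of 10 values, 32 held a library past Dixon's 95% critical value for 10 samples, and chance alone gives about 5%, or 1 group in 20.

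PKA KD replicate 3 was the highest of its group for 5 genes, each given with that share and with its CPM against the group median: Atp5o 0.68 (138 against 85 CPM), Kynu 0.48 (155 against 94.8 CPM), Ndufb9 0.65 (163 against 91.3 CPM), Rpl22 0.74 (103 against 48.8 CPM) and Rpl4 0.73 (535 against 292 CPM). It was the lowest for 8 genes: Aldoa 0.47 (100 against 137 CPM), Bscl2 0.72 (41.7 against 55.5 CPM), Glyctk 0.53 (114 against 157 CPM), Gna11 0.60 (60.4 against 96.6 CPM), Gyg 0.50 (6.58 against 9.22 CPM), Hjv 0.56 (87.5 against 140 CPM), Pkig 0.54 (6.45 against 11.2 CPM) and Prkar2b 0.47 (0.128 against 0.336 CPM). PKA KD replicate 5 was the highest for 3 genes: Atf5 0.62 (277 against 134 CPM), Fgf21 0.60 (9.38 against 1.51 CPM) and Slc25a22 0.54 (145 against 81.4 CPM). It was the lowest for 3 genes: C1ra 0.59 (421 against 695 CPM), Cyp2c54 0.59 (31.6 against 243 CPM) and Mug1 0.51 (1572 against 4915 CPM).

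Among the other libraries, the highest values were Cfd in PKA KD replicate 2 0.51 (4.41 against 0.405 CPM), Crem in Control replicate 3 0.54 (13.9 against 8.33 CPM), Ndufc2 in Control replicate 10 0.48 (53 against 43.6 CPM), Pgam1 in Control replicate 6 0.56 (202 against 175 CPM) and Psat1 in Control replicate 8 0.56 (1.7 against 0.764 CPM). The lowest values were Ccne2 in Control replicate 7 0.48 (0.148 against 0.511 CPM), Dhcr7 in Control replicate 6 0.48 (70.8 against 129 CPM), Elovl3 in Control replicate 5 0.48 (32.9 against 162 CPM), Ihh in Control replicate 2 0.61 (0.294 against 1.1 CPM), Lipc in Control replicate 8 0.47 (81 against 120 CPM), Pccb in Control replicate 8 0.48 (146 against 167 CPM), Pkib in Control replicate 10 0.47 (0.141 against 0.548 CPM) and Tm6sf2 in PKA KD replicate 8 0.49 (18.9 against 30.3 CPM).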

How the results depend on the processing

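Rises and falls numbered 2406 and 1998 with RLE scaling, 2467 and 2041 with DESeq2, 2273 and 2052 with limma-voom, 2345 and 1999 without the filter, and 2341 and 1823 with these 2 groups alone. Leaving out each replicate in turn gave 2142 to 2439 rises and 1907 to 2123 falls. Scaling by total counts gave 3562 rises and 1171 falls, which kept all 2396 rises but only 58.4% of the 2005 falls found with TMM scaling. Same-numbered PKA KD and Control samples had correlated deviations of -0.383 to 0.232, of both signs. Differently numbered samples were not compared, so these values cannot show whether the numbers pair the samples. A fit with the replicate number as a block gave 2403 rises and 2078 falls. Among 328 genes covered by the naming rule and lists, none reversed where it had a value (321 genes with these 2 groups alone, all 328 otherwise). Most were named for their calls in the same libraries, so reversals were unlikely from the start. Calls lost numbered 29 with total counts, 20 with these 2 groups alone, 19 without PKA KD replicates 5 and 7 (chosen after seeing the data), 17 with limma-voom, 16 without the filter, 9 with the block, 1 each with DESeq2 and RLE, and 299 of 6560 values when each library was left out. Within PKA KD, r without the 2 libraries farthest from the median of Prkaca was 0.394 for Prkacb and 0.159 for Fgf21. The shorter motif, which every full element also holds, was in 35% of promoters of genes that fell, against 4.33% for the full element. Over all tested genes these shares were 31% and 3.12%. The cause of the differences between the settings was not tested. Genes of few CPM have large SEs, so small changes there are not detectable at this depth.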
